A study of Mus musculus with 8 samples.

Results

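The 9 genes followed here, of 27962 gene names on the array, were *Cux1*, *Cux2*, *Rorb*, *Tbr1*, *Bcl11b*, *Foxp2*, *Ctgf*, *Slc17a7* and *Camk2a*. They were chosen by name as genes of the projection neurons of the cerebral cortex. The rule took every probe whose gene name on the array equals one of these symbols, which gave 7 genes with 11 probes, and the remaining 2 genes (*Cux1* as Cutl1, *Cux2* as Cutl2) were found under older symbols through their RefSeq records, which gave 16 of the 41174 probes. All mice were male C57BL/6J, of 8 to 12 weeks according to the labels, where the methods give a single age of 9 weeks. The 4 groups of mice at each time had permanent middle cerebral artery occlusion (PMCAO, by an intraluminal filament) or a sham operation, in which the artery was exposed and the wound closed, and then an intracerebroventricular injection of 1 pmol PACAP38 in 1 μL or the same volume of saline with 0.9% NaCl. The right, ipsilateral hemisphere was taken 6 h or 24 h later, and the RNA of 3 mice per group made 1 pool, so that 8 pools were measured on 8 two-colour arrays. Each array held the PACAP38 pool and the saline pool of one surgery and time, and the dyes were exchanged between the arrays numbered 1 (PACAP38 in Cy5) and 2 (PACAP38 in Cy3). The mice with PMCAO had been selected for neurological grade 1 or 2, the sham mice were taken at random, and a hemisphere held infarct core, penumbra and non-ischemic tissue together.

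The cortex is built of layers whose excitatory neurons differ in their targets and in the transcription factors they use. *Cux1* and *Cux2* are homeobox factors of the upper layers, *Rorb* is a nuclear receptor of layer 4, *Bcl11b* (Ctip2) is a zinc finger factor of subcerebral neurons of layer 5, and *Tbr1* and *Foxp2* are factors of layer 6. *Ctgf* (Ccn2), a secreted matricellular protein, marks the deepest cortical layer, 6b. *Slc17a7* (VGLUT1) loads glutamate into synaptic vesicles and *Camk2a* encodes a kinase of the excitatory synapse; both are shared by the forebrain excitatory neurons. Several of these genes are not restricted to the cortex: *Bcl11b* and *Foxp2* are also strong in medium spiny neurons of the striatum, which the same artery supplies, *Tbr1* is also in neurons of the olfactory bulb, and *Ctgf* is also made by vascular cells and glia. In RNA of a whole hemisphere, fewer cells of a type and less RNA per cell cannot be told apart.

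The probes of the genes on which the results turn are given by their first 30 of 60 bases, because a gene with several probes was read at separate places of its transcript and these did not always give the same value. Positions are those of the array files on mouse build mm7. *Rorb* was read on the minus strand of chromosome 19 by the brightest probe A_52_P662179 (chr19:18638156-18638215), by A_52_P74320 (chr19:18658168-18658227), 20.0 kb away, and by A_51_P388490 (chr19:18677045-18677104), 38.9 kb away. *Foxp2* was read on the plus strand of chromosome 6 by A_52_P56818 (chr6:15380999-15381058), the brightest, and by A_51_P233753, whose target runs over 1172 bases of the genome (chr6:15355593-15356764). The single probes of *Tbr1* (A_51_P267017, chr2:61744166-61744225, plus), *Bcl11b* (A_51_P171772, chr12:105437087-105437146, minus) and *Ctgf* (A_51_P157042, chr10:24349402-24349461, plus) follow. The sequences are written 5′ to 3′ in lower case with no base singled out.
Rorb A_52_P662179: ttgctgttgttatatgttacttttatgtta
Rorb A_52_P74320: tcaacccattaaacaacactgttctgtttg
Rorb A_51_P388490: cggaagaaataatgtcacacaacgataaac
Foxp2 A_52_P56818: gcgtattgttatatatatagtacattgcgt
Foxp2 A_51_P233753: actgtggacgaagtcgaataccagaagcga
Tbr1 A_51_P267017: gatgaattgtgtgagttgtatattttactg
Bcl11b A_51_P171772: acatgtgagtactgcggcaaggtcttcaag
Ctgf A_51_P157042: gtcaaatccctgttggtgaacaaatggcct

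Where a gene had several probes, the brightest stood for it. The brightest probe of each of the 9 genes was well above background in all 16 channels, as marked by the scanner software. Of the other 7 probes, A_51_P375237 (*Cux1*) was well above background in 1 channel and A_52_P680751 (*Cux1*) in 13. A_52_P74320 (*Rorb*) and A_51_P343218 (*Camk2a*) were in 15 each. These *Cux1* probes enter only where the mean of all probes of a gene is given, and there A_51_P375237 is once named with its own value. One array stood apart from the rest, the sham array numbered 2 at 6 h. The software marked 10.7% of its spots as outliers, against 0.323% to 3.09% on the other 7 arrays. Over the probes, the difference between the 2 arrays of sham at 6 h, which held the same pools according to the methods, had an SD of 1.29 (log2), against 0.39 to 0.43 for the other 3 groups. Results at 6 h are therefore given with and without that array. Outlier spots were left out, and for that reason *Camk2a* had no value on either sham array at 6 h or on the PMCAO array numbered 1, and *Tbr1* and *Slc17a7* had none on the sham array numbered 2.

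At 24 h, 5 of the 9 genes differed between ischemic and sham hemispheres of saline-injected mice by more than the thresholds used in the study, above 1.5-fold or below 0.75-fold. *Rorb*, *Tbr1*, *Bcl11b* and *Foxp2* were below 0.75-fold and *Ctgf* was above 1.5-fold, while *Cux1*, *Cux2*, *Slc17a7* and *Camk2a* lay between. Of all 41157 probes, 13.3% were below 0.75-fold and 9.56% above 1.5-fold in the same pair of pools. Between the PACAP38-injected pools, PMCAO over sham, none of the 9 genes was past either threshold, where 8.19% of all probes were below and 6.39% above. The median over the 9 genes was -0.20 (log2) in the saline pair and -0.07 in the PACAP38 pair, against medians of 0.02 and 0.03 over all probes. On the arrays numbered 1 and 2 taken singly, the median of the genes was -0.28 and -0.13 in the saline pair and -0.10 and -0.21 in the PACAP38 pair, so that the order of the pairs turned on the arrays numbered 2. With the mean of all probes of a gene, the saline median was -0.0080.

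*Rorb*, the gene of layer 4, had the lowest value. Its level, the log2 of the signal relative to the 75th percentile of the channel, was -2.17 and -1.99 on the 2 arrays for sham saline, -1.97 and -2.17 for sham PACAP38, -3.12 and -3.01 for PMCAO saline, and -2.07 and -2.41 for PMCAO PACAP38. The PMCAO saline pool was thus lower than the other 3 pools on both arrays, and those 3 overlapped. PMCAO over sham was -0.95 and -1.02 (log2) on the 2 pairs of arrays after saline, a mean fold of 0.505, and -0.10 and -0.23 after PACAP38, a mean fold of 0.892. The second probe, A_51_P388490, gave similar differences, with -0.88 and -1.02 after saline and -0.31 and -0.20 after PACAP38. By this probe, however, the PMCAO PACAP38 pool, at -2.52 and -2.83, was below sham saline, at -2.23 and -1.89. It overlapped sham PACAP38, at -2.20 and -2.64, and PMCAO saline was at -3.10 and -2.91. The remaining probe, A_52_P74320, lies between the other 2 and was the dimmest, well above background in 15 of 16 channels. It did not give such differences, with -0.15 and -0.07 after saline and 0.05 and -0.35 after PACAP38. The low level of *Rorb* in the PMCAO saline pool was therefore measured by 2 of 3 probes.

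*Tbr1*, the T-box factor of layer 6, had levels of -0.15 and 0.04 for sham saline, 0.28 and -0.14 for sham PACAP38, -0.59 and -0.82 for PMCAO saline, and 0.11 and -0.68 for PMCAO PACAP38. The PMCAO saline pool was again the lowest on both arrays, but the PMCAO PACAP38 pool differed between its arrays by more than it differed from either neighbour. PMCAO over sham was -0.45 and -0.86 (log2) after saline, a mean fold of 0.637, and -0.17 and -0.54 after PACAP38, a mean fold of 0.781.

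*Bcl11b*, the layer 5 and striatal factor, was even between arrays. Its levels were 2.27 and 2.15 for sham saline, 2.15 and 2.32 for sham PACAP38, 1.74 and 1.65 for PMCAO saline, and 1.91 and 1.92 for PMCAO PACAP38. The pools stood in the order PMCAO saline, PMCAO PACAP38 and then both sham pools, which overlapped. PMCAO over sham was -0.53 and -0.51 (log2) after saline (fold 0.698) and -0.24 and -0.41 after PACAP38 (fold 0.800).

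*Foxp2*, of layer 6 and striatum, had levels of 0.63 and 0.82 for sham saline, 0.77 and 0.45 for sham PACAP38, 0.15 and 0.23 for PMCAO saline, and 0.48 and 0.15 for PMCAO PACAP38. Both PMCAO pools were below the sham saline pool and overlapped each other, and the sham PACAP38 pool overlapped the PMCAO PACAP38 pool. PMCAO over sham was -0.48 and -0.59 (log2) after saline (fold 0.691) and -0.29 and -0.31 after PACAP38 (fold 0.812). Its second probe was lower as well, with -0.37 and -0.32 after saline, which is short of the threshold (fold 0.787), and -0.14 and -0.40 after PACAP38.

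*Ctgf* went the other way. Its levels were 3.06 and 2.96 for sham saline, 3.002 and 3.13 for sham PACAP38, 3.75 and 3.64 for PMCAO saline, and 3.27 and 3.33 for PMCAO PACAP38. The order was both sham pools, which overlapped, then PMCAO PACAP38, then PMCAO saline, with no overlap between these steps. PMCAO over sham was 0.69 and 0.68 (log2) after saline (fold 1.61) and 0.27 and 0.19 after PACAP38 (fold 1.17).

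The upper-layer factors and the general excitatory genes stayed near sham at 24 h. For *Cux1*, PMCAO over sham was -0.14 and 0.03 (log2) after saline and -0.14 and 0.04 after PACAP38. For *Cux2* it was 0.05 and -0.07 after saline and 0.08 and -0.21 after PACAP38. *Slc17a7* gave -0.16 and 0.19 after saline and 0.20 and 0.07 after PACAP38, so that its sign turned with the dye in the saline pair. *Camk2a* gave -0.28 and -0.13 after saline and 0.01 and -0.14 after PACAP38.

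**Figure D1:**
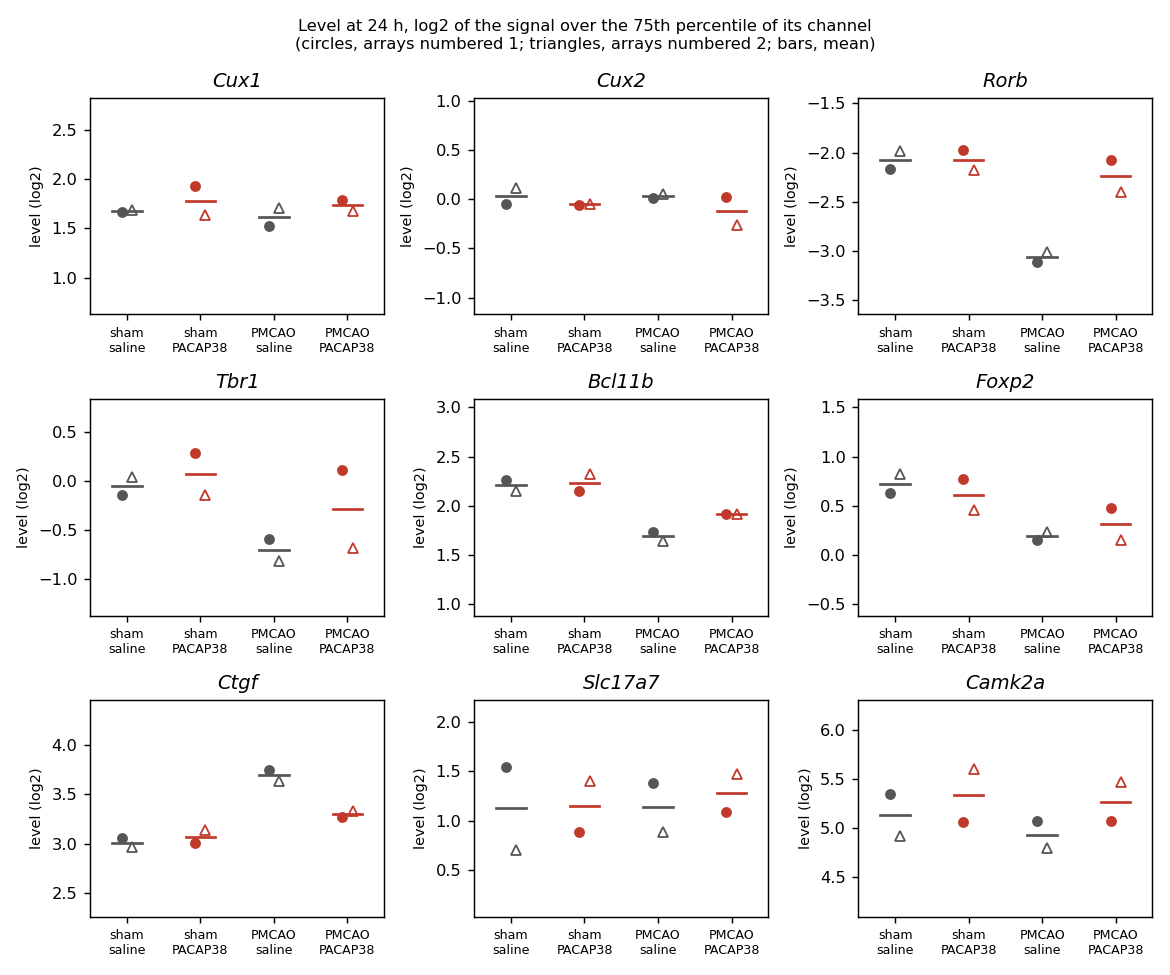
Level of the 9 genes at 24 h in the 4 pools (x axis), as log2 of the processed signal relative to the 75th percentile of its channel (y axis), each panel spanning the same height; circles and open triangles are the arrays numbered 1 and 2, bars their mean, grey saline and red PACAP38. The PMCAO saline pool is the lowest on both arrays for *Rorb* (mean -3.06), *Tbr1* (-0.70) and *Bcl11b* (1.69) and the highest for *Ctgf* (3.70).

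**Figure D2:**
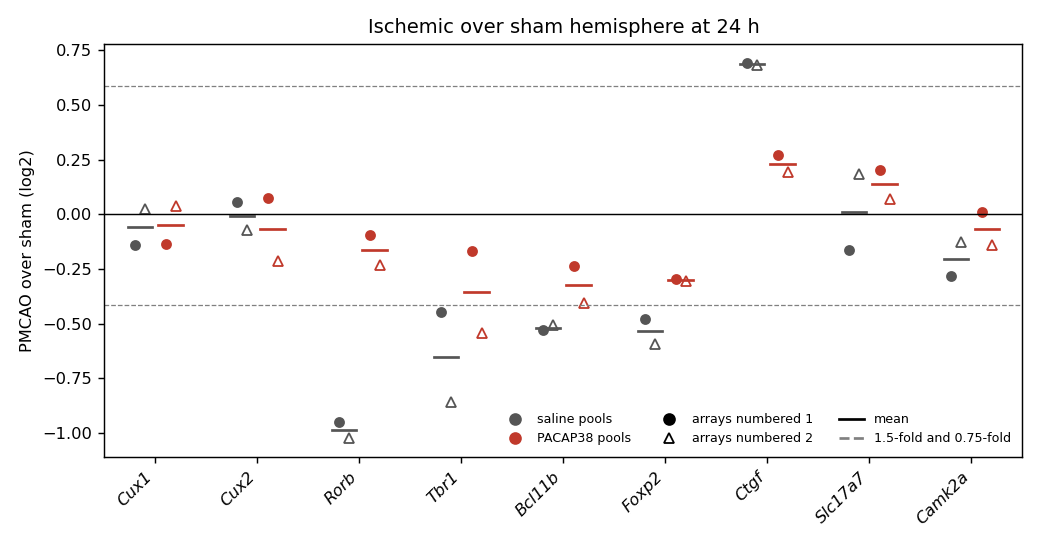
PMCAO over sham at 24 h (y axis, log2) for the brightest probe of each gene (x axis), grey between saline pools and red between PACAP38 pools; circles and open triangles are the pairs of arrays numbered 1 and 2, bars their mean, dashed lines 1.5-fold and 0.75-fold. In the saline pair, 4 genes lie below the lower line and *Ctgf* above the upper one, and in the PACAP38 pair none of the means does.

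Each pair of pools at 24 h is 1 replicate, so the 2 pairs, saline and PACAP38, were entered with those of 6 h in a fit with limma. The fit had a mean for each time and no term for the injection. A difference between the saline and the PACAP38 pair, such as that of *Rorb*, was therefore counted as error. No gene passed an adjusted p of 0.05 at 24 h, where 2.10% of all probes did. The mean over both pairs was 0.46 ± 0.15 (log2, SE) for *Ctgf* (limma adjusted p = 0.191), -0.42 ± 0.14 for *Bcl11b* (0.204), -0.42 ± 0.14 for *Foxp2* (0.217), -0.58 ± 0.25 for *Rorb* (0.292) and -0.50 ± 0.23 for *Tbr1* (0.321). The 95% intervals of the means were -0.32 to 0.22 for *Cux1*, -0.31 to 0.23 for *Cux2* and -0.24 to 0.39 for *Slc17a7*. The saline and the PACAP38 pools of one surgery lay on the same 2 arrays, so the 2 pairs are not independent, which by itself makes these p-values too small. With the array as the unit of the fit, where the p-values measure the spread between dye-exchanged arrays of the same pools, 0% of 36121 probes passed at 24 h (1161 higher and 335 lower at an unadjusted p under 0.05), and the limma adjusted p of each of the 6 genes in that fit was 1.00.

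The other genes of cortical and forebrain excitatory neurons were counted from a list of 36 genes with a probe (8 of the upper layers, 8 of layer 5, 8 of layer 6 and 12 general ones). After saline at 24 h, 16 of the 36 were below 0.75-fold and none above 1.5-fold, PMCAO over sham, and 31 were below 0 on both pairs of arrays, as were 33.9% of all probes. After PACAP38, 5 of the 36 were below 0.75-fold and none above 1.5-fold, and 24 were below 0 on both pairs of arrays, as were 31.2% of all probes. The median of the list was -0.37 (log2) after saline and -0.12 after PACAP38. By group, below 0.75-fold after saline were 4 of 8 upper-layer genes, 3 of 8 of layer 5, 3 of 8 of layer 6 and 6 of 12 general genes.

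No gene of this list passed the limma threshold at 24 h in 34 tested, so the 3 lowest and 3 highest in the saline pair are named, among probes well above background in every channel. The lowest were *Nr4a2*, an orphan nuclear receptor and immediate early gene, with -1.20 and -1.22 (log2) on the 2 pairs of arrays, *Neurod6*, a helix-loop-helix factor of pyramidal neurons, with -0.99 and -1.20, and *Camk4*, a calcium-dependent kinase, with -0.82 and -0.90. All 3 were closer to 0 after PACAP38, with means of -0.81, -0.66 and -0.46. The highest were *Sulf2*, a sulfatase of heparan sulfate, with 0.25 and 0.27, *Nxph4*, a neurexophilin, with 0.23 and 0.03, and *Bcl6*, a transcriptional repressor, with 0.14 and 0.02. None of these 3 was past the threshold.

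Markers of other cells moved in the same pools. Of 8 genes of striatal medium spiny neurons, 7 were below 0.75-fold after saline at 24 h, with a median of -0.69 (log2). After PACAP38 1 of the 8 was, with a median of -0.31. Their summed level was 60.3 in the PMCAO saline pool, 76.6 in the PMCAO PACAP38 pool and 88.3 and 89.6 in the sham pools, in units of the channel's 75th percentile. All 8 pan-neuronal genes lay between the thresholds in both pairs, with medians of -0.07 and -0.05. The hemispheres had been dissected without the olfactory bulb, yet all 4 olfactory bulb markers were above 1.5-fold in the PMCAO saline pool over sham saline, with a median of 2.07, and none was in the PACAP38 pair. Their summed level was 2.85 in the PMCAO saline pool and 0.737 to 0.958 in the other 3 pools of 24 h. Among the 4 was *Tbx21*, a T-box factor of bulb neurons, with 2.71 and 2.37. Of 4 cerebellar markers, 1 was below 0.75-fold and none above 1.5-fold after saline, and the defining ones, *Gabra6* and *Cbln3*, were well above background in 6 and 2 of the 16 channels. Of 6 endothelial and mural markers, genes of vascular cells, 2 were above 1.5-fold and 1 below 0.75-fold after saline, with a median of 0.24, and 1 was above and 1 below after PACAP38, with a median of -0.03. Their summed level was 33.1 in the PMCAO saline pool, 24.9 in the PMCAO PACAP38 pool and 27.3 and 28.5 in the sham saline and sham PACAP38 pools. *Gfap*, the astrocyte filament gene, was the 1 of 6 astrocyte markers above 1.5-fold on both pairs of arrays, with 1.23 and 1.02 after saline and 0.95 on each after PACAP38. *Aldh1l1* was past the threshold through the arrays numbered 1 alone, with 10.99 and 0.14 after saline. Of the microglial markers, 2 of 6 microglial markers after saline and 4 of 6 after PACAP38 were below 0.75-fold. The part of these cells in the values of the 9 genes was not tested.

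At 6 h, the direction and size of PMCAO over sham depended on the array that stood apart. On the arrays numbered 1, which do not include it, 4 genes were below 0.75-fold after saline: *Rorb* with -0.83 (log2), *Tbr1* with -0.63, *Foxp2* with -0.58 and *Cux1* with -0.50. *Bcl11b* was above 1.5-fold with 0.62, *Ctgf* was just short of it with 0.51, and *Slc17a7* and *Cux2* were at -0.13 and -0.02. Second probes well above background in all channels did not all give the same direction. A_51_P388490 of *Rorb* did, with -0.56 on the arrays numbered 1 and -0.38 on those numbered 2. So did A_52_P74320 of *Rorb*, well above background in 15 channels, with -0.52 and -1.31. A_52_P567658 of *Cux1* gave 0.27 and 0.95, a mean above 1.5-fold, and A_51_P233753 of *Foxp2* gave 0.55 and -0.47, a mean of 0.04. Of all 40214 probes with a value on the arrays numbered 1, 16.9% were below 0.75-fold and 17.2% above 1.5-fold. After PACAP38 the same arrays gave 0.10 for *Rorb*, 0.22 for *Tbr1*, -0.12 for *Foxp2*, -0.15 for *Cux1*, 0.28 for *Bcl11b* and 0.45 for *Ctgf*, and none of the 8 genes with a value was past a threshold, where 10.2% of all probes were below and 17.9% above.

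On the arrays numbered 2 the values were lower, apart from *Bcl11b*. The medians over all probes there were -0.43 (log2) after saline and -0.29 after PACAP38. After saline, *Foxp2* was at -2.79 (log2), *Rorb* at -2.07, *Cux2* at -1.14, *Cux1* at -0.95 and *Ctgf* at -0.79, while *Bcl11b* was at 0.76. After PACAP38, they were at -2.49, -2.00, -1.23, -1.41 and -0.70, and *Bcl11b* at 0.36. The gap lay in the sham levels: for *Foxp2* the 2 sham channels read 0.74 and 0.52 on the array numbered 1 and 3.27 and 2.91 on the array numbered 2, whereas the 4 PMCAO channels read 0.16 to 0.48. *Bcl11b* did not show this, with sham levels of 2.13 and 2.27 on the array numbered 1 and 1.94 and 1.97 on the array numbered 2, below PMCAO levels of 2.33 to 2.75. Its value at 6 h was thus higher in the ischemic hemisphere on both pairs of arrays, opposite to 24 h. With outlier spots kept, *Camk2a* at 6 h gave 0.04 and 0.22 on the 2 pairs after saline and 0.60 and 0.87 after PACAP38, *Tbr1* gave -1.20 and -1.60 on the arrays numbered 2 after saline and PACAP38, and *Bcl11b* gave 1.48 and 1.07 there. The saline values there were then -2.06 for *Foxp2*, -1.35 for *Rorb*, -0.41 for *Cux2*, -0.23 for *Cux1* and -0.07 for *Ctgf*. After PACAP38 these 5 genes were at -1.78, -1.29, -0.53, -0.71 and 0.01.

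**Figure D3:**
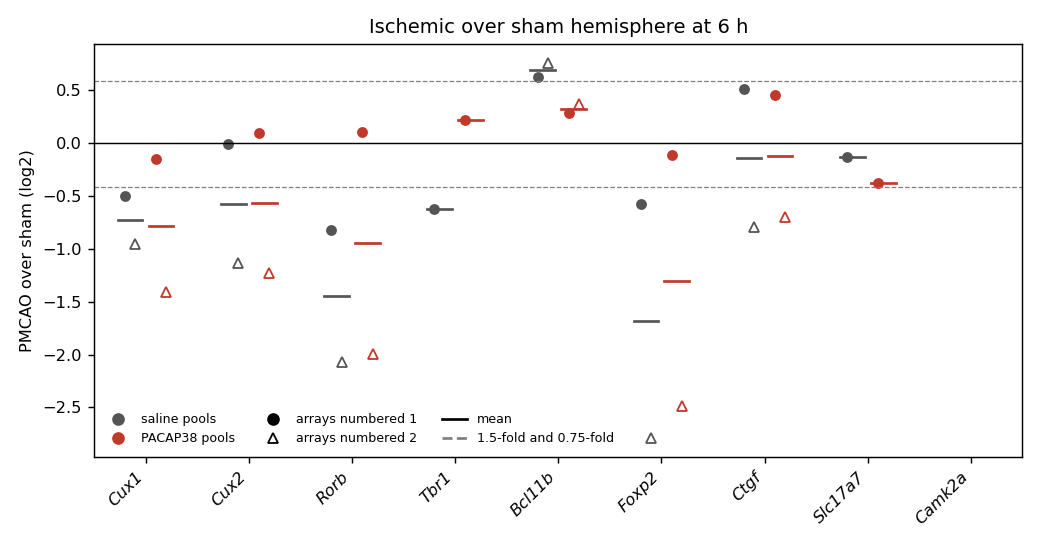
PMCAO over sham at 6 h (y axis, log2) for the brightest probe of each gene (x axis), with colours and symbols as for 24 h; *Tbr1* and *Slc17a7* have values on the arrays numbered 1 alone and *Camk2a* has none. The open triangles, which contain the sham array that stood apart, lie between -2.79 and -0.70 for all genes shown with them except *Bcl11b*.

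Averaged over both pairs of arrays, 4 genes were below 0.75-fold and 1 above 1.5-fold after saline at 6 h among the 6 with a value on both, where 34.9% and 19.5% of all 36131 probes were. After PACAP38, 4 were below and none above, where 30.6% and 17.0% of all probes were. The fit with limma called 5 of 8 genes at 6 h, where it called 42.5% of all probes: *Foxp2* with -1.49 ± 0.14 (log2, SE; adjusted p = 0.0040), *Cux1* with -0.75 ± 0.10 (0.0070), *Cux2* with -0.57 ± 0.10 (0.014), *Rorb* with -1.20 ± 0.25 (0.020) and *Bcl11b* with 0.51 ± 0.14 (0.044). The second probe of *Foxp2* was at -0.02 ± 0.11 (limma adjusted p = 0.913) and A_52_P567658 of *Cux1* at 0.37 ± 0.16 (0.134). The other probes of *Rorb* were not called either, with -0.09 ± 0.26 for A_51_P388490 (limma adjusted p = 0.797) and -0.52 ± 0.21 for A_52_P74320 (0.118). With normexp and loess, *Cux1* by its brightest probe was at 0.012 ± 0.044 (limma adjusted p = 0.846) and was not called. Without the arrays numbered 2, the limma fit called none of them, with adjusted p-values from 0.193 to 0.874. Of all 40202 probes it then called 88 higher and 15 lower. With the array as the unit, it called none and 0% of all probes (2527 higher and 2192 lower at an unadjusted p under 0.05), with adjusted p-values of the members from 0.363 to 0.869. The SE was then 0.60 for *Foxp2*, 0.32 for *Cux1*, 0.38 for *Cux2*, 0.46 for *Rorb* and 0.24 for *Bcl11b*. Each was larger than with the saline and PACAP38 pairs as replicates, which shared their arrays. The median over all probes in this contrast was -0.09 (log2), and with channels scaled by their median it was -0.26. With outlier spots kept it was 0.23.

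The difference between the times was tested in the same fit. PMCAO over sham at 24 h minus that at 6 h was called for *Foxp2* (1.08 ± 0.20, log2, SE; limma adjusted p = 0.028), *Cux1* (0.70 ± 0.14; 0.032) and *Bcl11b* (-0.93 ± 0.20; 0.035), where 25.1% of all probes were called. For *Foxp2* and *Cux1*, the other probes just named gave -0.29 ± 0.15 and -0.26 ± 0.23 (limma adjusted p = 0.213 and 0.438), opposite in sign to the brightest. With normexp and loess *Cux1* was not called (limma adjusted p = 0.995). Without the arrays numbered 2, the difference was -0.04 for *Foxp2*, 0.19 for *Cux1* and -0.84 for *Bcl11b*, and none was called (limma adjusted p = 0.956, 0.700 and 0.279). In that fit 48 of 40202 probes were called higher and 71 lower. With the array as the unit, 0% of probes were called (786 higher and 944 lower at an unadjusted p under 0.05) and the limma adjusted p for *Bcl11b* was 0.719. The arrays of 6 h and of 24 h were on different slides, so time and slide cannot be told apart.

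Of the 34 other excitatory neuron genes tested at 6 h, 7 were called higher (*Mdga1*, *Fezf2*, *Syt6*, *Nxph4*, *Cplx3*, *Emx1* and *Slc30a3*) and 10 lower (*Pou3f2*, *Pou3f3*, *Lmo4*, *Calb1*, *Pcp4*, *Ldb2*, *Rprm*, *Neurod6*, *Neurod1* and *Nrgn*), where 16.7% of all probes were called higher and 25.8% lower. The means of those called higher ran from 0.46 to 1.66 (log2) and of those called lower from -1.31 to -0.54. On the saline pair of the arrays numbered 1, all 7 of the former were above 0, and 7 of the 9 of the latter with a value (all but *Rprm*) were below 0. On the PACAP38 pair of the same arrays these counts were 5 of 7 and 5 of 9. These calls share the limits of the 5 genes above, and between the times 8 of the 34 were called, *Ldb2* higher at 24 h and *Mdga1*, *Rspo1*, *Fezf2*, *Syt6*, *Nr4a2*, *Camk4* and *Slc30a3* lower, where 16.2% of all probes were called higher and 8.86% lower.

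The effect of PACAP38 itself was read on each array as PACAP38 over saline, with the sign turned where PACAP38 carried Cy3. At 24 h after PMCAO, *Rorb* was 1.79-fold higher with PACAP38, with 1.05 and 0.63 (log2) on the 2 arrays, and was the 1 gene of 9 past a threshold, where 11.2% of all probes were. *Tbr1* was next with 0.71 and 0.15, then *Camk2a* with 0.01 and 0.69 and *Bcl11b* with 0.18 and 0.29. *Ctgf* was lower with PACAP38, with -0.47 and -0.29, a mean of -0.38 that is short of the threshold. *Slc17a7* gave -0.28 and 0.61, *Foxp2* 0.33 and -0.06, *Cux1* 0.28 and -0.02 and *Cux2* 0.02 and -0.29, so that in each of these 4 the 2 arrays differed in sign. These values share the PMCAO saline pool with PMCAO over sham after saline. On both arrays that pool was the lowest for *Rorb*, *Tbr1* and *Bcl11b* and the highest for *Ctgf*. For *Tbr1* its levels overlapped those of the PMCAO PACAP38 pool.

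At 6 h after PMCAO, none of the 9 genes was past a threshold by its brightest probe, where 12.3% of all probes were. *Rorb* gave 0.19 and -0.05 (log2) by that probe, but 1.00 and 0.63 by A_51_P388490 and 0.76 and 0.67 by A_52_P74320, which are means of 1.76-fold and 1.64-fold. The probes of *Rorb* thus disagreed at 6 h as they did at 24 h, and not in the same way: at 24 h these 2 probes gave 0.59 and 0.10, and 0.26 and 0.03. *Bcl11b* was lower with PACAP38 on both arrays, with -0.22 and -0.36, as was *Slc17a7* with -0.22 and -0.23. *Tbr1* gave 0.69 and -0.48, and *Ctgf* 0.05 and 0.28.

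In sham hemispheres at 24 h none of the 9 genes was past a threshold, where 5.62% of all probes were, and the means ran from -0.11 (log2, *Foxp2*) to 0.20 (*Camk2a*). The 2 arrays differed most in *Slc17a7*, with -0.67 and 0.71, and *Camk2a*, with -0.30 and 0.70. At 6 h *Rorb* was the 1 of 8 genes past a threshold, where 11.5% of all probes were, with -0.72 and -0.13 on the 2 arrays, and its other probes gave -0.03 and 0.18, and -0.12 and -0.04. *Foxp2* gave -0.22 and -0.36 at 6 h and *Ctgf* 0.12 and 0.19. The mean over the 4 comparisons of PACAP38 over saline was not called for any of the 8 genes tested, nor for any probe (0%; 1222 higher and 815 lower at an unadjusted p under 0.05). The lowest limma adjusted p of the genes was 0.872, which *Cux1* (0.10 ± 0.02, log2, SE), *Cux2* (-0.05 ± 0.04) and *Tbr1* (0.13 ± 0.11) shared. The 95% interval of the mean was -0.55 to 0.79 for *Rorb*, -0.18 to 0.43 for *Tbr1*, -0.27 to 0.30 for *Bcl11b*, -0.29 to 0.20 for *Foxp2* and -0.33 to 0.33 for *Ctgf*.

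**Figure D4:**
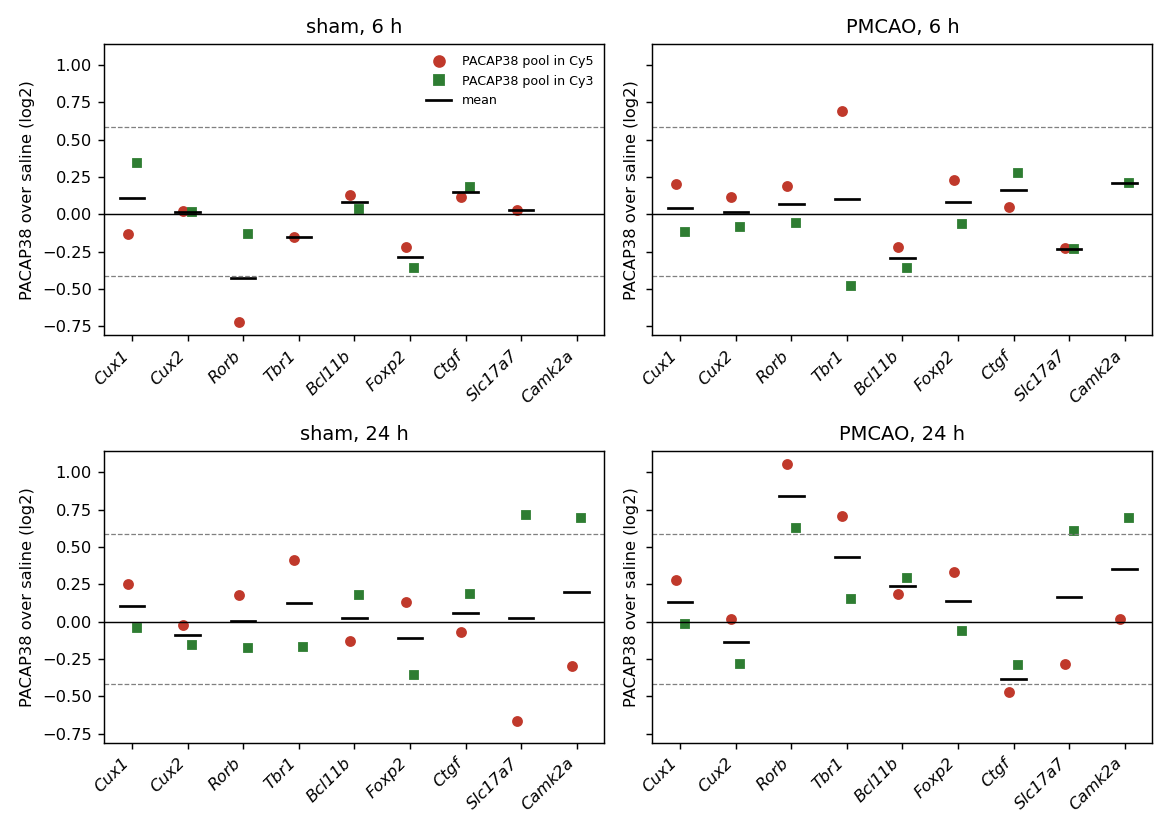
PACAP38 over saline (y axis, log2) for the brightest probe of each gene (x axis) in the 4 comparisons (panels); red circles are arrays with PACAP38 in Cy5, green squares those with PACAP38 in Cy3, black bars their mean, dashed lines 1.5-fold and 0.75-fold. *Rorb* in PMCAO at 24 h has both arrays above 1.5-fold (1.05 and 0.63), and *Slc17a7* in sham at 24 h has the widest gap between dyes in the 4 panels (-0.67 and 0.71).

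Among the 36 other excitatory neuron genes, PACAP38 over saline in PMCAO at 24 h was above 0 for 29 and below 0 for 7. Their median was 0.26 (log2), against 0.00 over all probes. On both arrays 25 were above 0, as were 24.9% of all probes. The share over all probes also holds probes near background, whose log ratio can be exactly 0 and then does not count as above 0. In this comparison 3 of 36 were above 1.5-fold and none below 0.75-fold, where 2.99% of all probes were above and 8.18% below. *Arpp21*, which encodes a cAMP-regulated phosphoprotein of forebrain neurons, was past the threshold on both arrays, with 0.87 and 0.60, and was the 1 gene of the list to be so in any comparison. The medians of the list were 0.00 in sham and -0.02 in PMCAO at 6 h and 0.02 in sham at 24 h. In the same PMCAO pools of 24 h, all 8 striatal markers were higher with PACAP38, with a median of 0.42, 7 of 8 pan-neuronal genes were above 0 with a median of 0.07, and all 4 olfactory bulb markers were below 0.75-fold with a median of -2.20. Of 7 interneuron markers 3 were above 0, with a median of -0.0040, and of 5 hippocampal markers 4 were, with a median of 0.05. All 5 thalamic markers were below 0, with a median of -0.12. All 6 oligodendrocyte and all 6 endothelial and mural markers were below 0, with medians of -0.35 and -0.34. So were all 6 astrocyte and all 6 microglial markers, each with a median of -0.15. Their part in the values of the 9 genes was not tested.

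**Figure D5:**
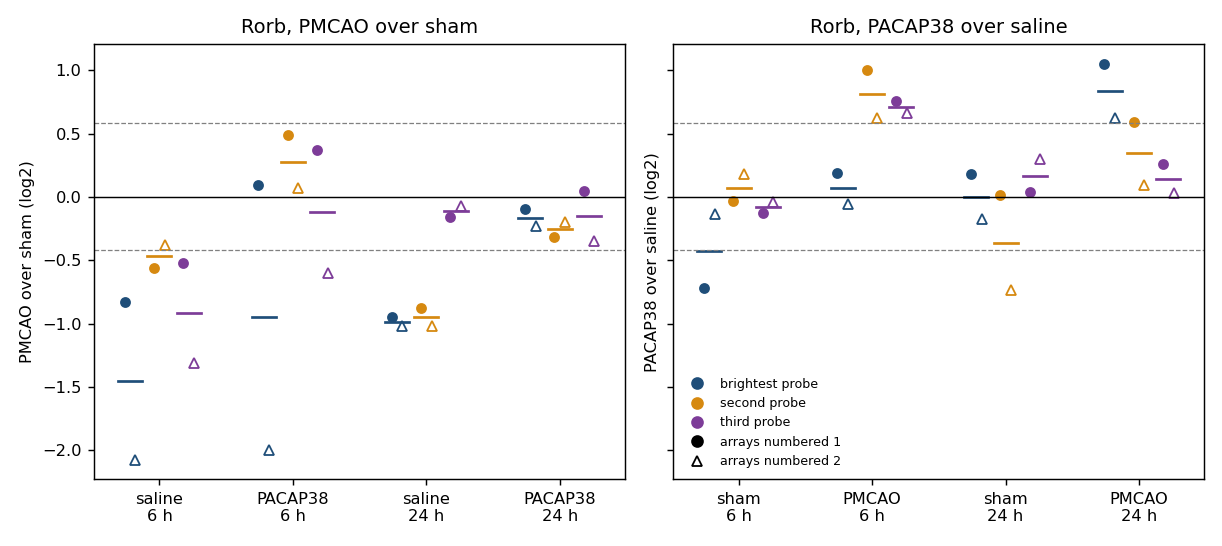
The 3 probes of *Rorb* (colours) in PMCAO over sham (left) and PACAP38 over saline (right), y axes in log2, x axes the pairs or comparisons; filled circles are arrays numbered 1, open triangles arrays numbered 2, bars their mean, dashed lines 1.5-fold and 0.75-fold. At 24 h after saline the brightest and the second probe lie near -0.99 and -0.95 and the last one at -0.11; with PACAP38 in PMCAO at 6 h the last 2 lie at 0.81 and 0.71 and the brightest at 0.07.

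The genes whose pattern over the 8 pools was most like the mean of 8 of the genes (*Camk2a* left out for its missing values), after the mean of each time was subtracted, were *Pknox2*, a homeobox factor (Pearson r = 0.998), *Gabra4*, a GABA-A receptor subunit (0.998), *Slc37a3*, a sugar phosphate transporter family member (0.998), *Sox6*, a transcription factor (0.997), and *Rims2*, a presynaptic scaffold (0.997), among 13952 genes. The 8 points share 8 arrays, and over the arrays numbered 1 alone the same genes had r = 0.79, 0.56, 0.67, 0.67 and 0.85, so that the near-perfect values rest on the arrays numbered 2.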

How the data were processed

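Mouse ipsilateral hemisphere RNA was measured on 8 two-colour Agilent arrays of 60-base probes. The labels number the arrays of a comparison as separate pools, whereas the methods describe one RNA labeled with either dye, so they were taken as 1 replicate. Each group is 1 pool of mice, so no p-value measures the spread between replicate pools of a group. For PMCAO over sham, p-values measure the spread between the saline and the PACAP38 pair, which includes any difference between the injections. Both pairs of a time were read on the same arrays, so a deviation that an array gives to both is not in that spread. For PACAP38 over saline, p-values measure the spread between the comparisons, which includes any difference between surgeries and times. With the array as the unit, they measure the spread between repeated arrays of the same pools.

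The authors deposited the output of Feature Extraction (version 9.5.3.1 in the submitters' processing notes, while the headers of the 6 h files give 9.5.1.1). The deposited log10 ratio of a spot is Cy5 over Cy3 after the software's background and dye correction. The deposited intensity columns hold its mean, background and processed signals. A series table deposited by the authors holds a processed ratio for each array, and on arrays with PACAP38 in Cy3 these are scores, ratios with a minus sign in front.

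PACAP38 over saline was the deposited log10 ratio in log2, sign-turned where PACAP38 was in Cy3. PMCAO over sham was the difference between processed signals of the same dye, number and time, each channel scaled to its 75th percentile. Control and outlier spots were left out. Tests used limma 3.58.1 with Benjamini-Hochberg adjustment over all probes, with 2 residual degrees of freedom for PMCAO over sham and 3 for PACAP38. Alternatives were other scalings (median, quantile, normexp with an offset of 50 and loess), the series table, trend and robust variance, a filter on probes above background, all probes of a gene, outlier spots kept, each array or pair left out, a replicate block and the array as the unit. The fits were tested on simulated data. Python 3.11.15, numpy 2.4.6, pandas 2.3.3, matplotlib 3.10.9 and R 4.3.3 were used. The members and lists were chosen with earlier results of these data known. The named genes were all 9 members, list genes past the limma threshold or else the 3 highest and 3 lowest at 24 h, those past the fold threshold on both arrays with PACAP38, and the 5 most similar patterns. The number of arrays limits the precision.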

Additional observations from a re-analysis of the deposited data

Results flagged for a closer look

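Of the 8 genes tested, 3 had a PMCAO over sham difference that passed the test of a change between 6 h and 24 h. Of all probes, 25.1% passed it. The difference at 24 h minus that at 6 h was -0.93 (log2) for *Bcl11b*, 0.70 for *Cux1* and 1.08 for *Foxp2* (limma adjusted p = 0.035, 0.032 and 0.028). The values of *Cux1* and *Foxp2* came mostly from the sham array numbered 2 at 6 h, since without the arrays numbered 2 they were 0.19 and -0.04, whereas *Bcl11b* was at -0.84. A_51_P233753 of *Foxp2* gave -0.29 and A_52_P567658 of *Cux1* gave -0.26, opposite in sign to the brightest probes. With normexp and loess *Cux1* was not called (limma adjusted p = 0.995). None of the 3 was called without the arrays numbered 2, where 48 of 40202 probes were called higher and 71 lower. None was called with the array as the unit of the fit, where 0% of probes were.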

How the results depend on the processing

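At 24 h no alternative called a member, where the main fit called 2.10% of all probes. For PACAP38 over saline as a mean of 4 comparisons none did either, and none called any probe. At 6 h, 5 of 8 members were called, where 42.5% of all probes were. With the array as the unit (chosen after seeing the data), 0 members and 0% of probes were. Without the arrays numbered 1, 6 of 6 were, where 7144 of 36423 probes were called higher and 14946 lower. Without the arrays numbered 2, 0 of 8 were, where 88 of 40202 probes were called higher and 15 lower. Without the saline pair at 6 h, *Rorb* was at -0.95 (log2) and *Bcl11b* at 0.32. For 24 h minus 6 h, 3 of 8 were called, where 25.1% of all probes were. Trend and robust called 5 of 8, and of 40508 probes 7763 higher and 3917 lower. With marked spots kept 1 of 9 was, and of 41174 probes 4425 higher and 8065 lower. With the array as the unit, 0 members and 0% of probes were. Without the arrays numbered 1, 6 of 6 were (12096 probes higher and 5259 lower of 36423). Without those numbered 2, 0 of 8 were (48 and 71 of 40202). With 1 pair left out, *Bcl11b* ranged from -1.11 to -0.74 (log2). With the replicate block, 5 of 6 members were called at 6 h, 0 at 24 h and 4 between the times. Of all 36121 probes, that fit called 8025 higher and 11655 lower at 6 h. At 24 h it called 2155 and 1299, and between the times 8274 and 5052. The same-numbered arrays share a number and the dye orientation, and the block's correlation was -0.47 for PMCAO over sham and 0.095 for PACAP38. *Cux1* at 6 h turned from -0.73 to 0.039 in the saline pair and from -0.75 to 0.012 in the fit with normexp, loess and Aquantile, and in the saline pair to 0.32 as the mean of its 4 probes, of which A_51_P375237, at 1.05, was well above background in 1 of 16 channels. Without either replicate number, *Cux2* at 6 h ranged from -1.23 to 0.090 in the PACAP38 pair and from -1.18 to 0.037 in the fit, *Rorb* from -2.00 to 0.097 in the PACAP38 pair, and *Foxp2* between the times from -0.038 to 2.19. The median of the members for PACAP38 over saline was 0.025 in sham at 6 h, -0.050 with marked spots kept and -0.054 to 0.025 on single arrays. In sham at 24 h it was 0.025, 0.058 with the mean of all probes and -0.040 to -0.022 on single arrays. In PMCAO at 24 h it was 0.16, 0.14 with normexp and loess and 0.15 to 0.18 on single arrays. For PMCAO over sham at 24 h it was -0.20 in the saline pair and -0.0080 with the mean of all probes, and -0.068 in the PACAP38 pair and -0.21 to -0.097 on single arrays. The cause was not tested.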
